A study of Mus musculus with 28 samples.

Results

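Adding Atoh1 to Gfi1 with Pou4f3 was examined by comparing 2 doxycycline (Dox)-inducible mouse embryonic stem cell (ESC) lines, iG+P and iGPA, in 8 of the 28 libraries of the series. Both lines were made from A2loxCre, a parental ESC line with a Dox-controlled locus that takes up a single cassette. The iG+P cassette carries Gfi1, Myc-tagged Pou4f3 and the fluorescent reporter mVenus, and the iGPA cassette carries these and Flag-tagged Atoh1. The factors of a cassette come from 1 transcript and are separated by 2A peptides. Cells were differentiated as embryoid bodies (EBs), floating aggregates in which ESCs form many cell types, and 4 groups of 2 libraries were collected at day 6. They were iG+P without Dox, iG+P with 2 µg/ml Dox for the last 48 h, iGPA without Dox and iGPA with the same Dox. The Dox libraries were made from mVenus+ cells isolated by FACS and the libraries without Dox from whole, unsorted EBs, so that within a line Dox and sorting cannot be told apart. The series record describes replicates as different clones of a line.

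The Atoh1 addition was defined for each gene as the Dox effect in iGPA (Dox minus No Dox, log2) minus the Dox effect in iG+P. A change that Dox or sorting makes alike in both lines cancels in this difference, and what the lines differed in before Dox is subtracted. No gene was selected in forming it. The other lines of the series entered only through the filter that set which genes were tested, for the spread and for comparison. Values are normalized counts as deposited by the authors, and changes are on the scale of log2(normalized count + 1), so that the Dox effect of a gene with low counts comes out too small, and the difference of 2 such effects may come out too small or too large. A gene was called when its limma adjusted p was under 0.05 with a change of at least 1.5 on the log2 scale. Coordinates are those of the NCBIM37 (mm9) mouse genome.

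Atoh1 is a basic helix-loop-helix (bHLH) transcription factor that binds short sequences called E-boxes together with a partner bHLH protein. It is needed for the formation of the mechanosensory hair cells (HCs) of the inner ear, and also of cerebellar granule neurons, dorsal spinal interneurons, Merkel cells and secretory cells of the gut. Gfi1, a zinc finger protein known mainly as a repressor, and Pou4f3, a POU homeodomain factor, are expressed in HCs after Atoh1 and are needed for HCs to mature and survive. HCs carry a bundle of actin-filled stereocilia with the transduction channel at its tip, and release glutamate at ribbon synapses at their base.

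To show where E-boxes lie in the genes that changed most, the 250 bases before the RefSeq start (GRCm38.p6) are printed 5′ to 3′ on the gene's strand for 3 of the largest rises and for the 4 largest rises among genes known to follow Atoh1, where RefSeq gives a promoter. Capitals mark only the E-boxes CAGCTG and CAGATG, the latter read on both strands (CATCTG). Other E-boxes, such as CATATG in the Neurod1 window and CACCTG in the Helt window, are left in lower case.
Dbx1, chr7:49636836-49637085, minus strand: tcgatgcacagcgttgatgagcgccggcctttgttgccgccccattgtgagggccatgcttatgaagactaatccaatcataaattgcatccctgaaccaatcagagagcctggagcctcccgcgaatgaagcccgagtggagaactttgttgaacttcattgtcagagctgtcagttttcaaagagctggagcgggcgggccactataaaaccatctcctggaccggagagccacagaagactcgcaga
Helt, chr8:46294672-46294921, minus strand: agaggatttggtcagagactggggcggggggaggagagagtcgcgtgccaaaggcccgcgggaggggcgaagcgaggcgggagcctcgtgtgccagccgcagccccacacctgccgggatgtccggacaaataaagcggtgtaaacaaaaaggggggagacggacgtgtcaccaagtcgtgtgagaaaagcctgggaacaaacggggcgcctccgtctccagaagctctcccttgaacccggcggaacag
Mybpc1, chr10:88605153-88605402, minus strand: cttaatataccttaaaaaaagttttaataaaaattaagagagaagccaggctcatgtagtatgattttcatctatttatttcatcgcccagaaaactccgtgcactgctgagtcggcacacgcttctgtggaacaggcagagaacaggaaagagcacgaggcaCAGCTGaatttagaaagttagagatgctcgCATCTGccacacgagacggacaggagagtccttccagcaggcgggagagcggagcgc
Neurod1, chr2:79456637-79456886, minus strand: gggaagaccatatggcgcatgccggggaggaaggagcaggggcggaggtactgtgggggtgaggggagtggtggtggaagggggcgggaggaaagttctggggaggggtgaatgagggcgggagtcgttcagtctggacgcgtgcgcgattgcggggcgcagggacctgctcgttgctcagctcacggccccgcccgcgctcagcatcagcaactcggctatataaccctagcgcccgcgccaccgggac
Nhlh2, chr3:102009895-102010144, plus strand: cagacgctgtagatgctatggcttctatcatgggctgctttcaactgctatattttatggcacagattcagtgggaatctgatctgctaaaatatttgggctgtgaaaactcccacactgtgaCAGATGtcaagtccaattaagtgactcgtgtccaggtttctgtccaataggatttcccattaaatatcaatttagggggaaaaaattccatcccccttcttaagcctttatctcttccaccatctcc
Barhl1, chr2:28916669-28916918, minus strand: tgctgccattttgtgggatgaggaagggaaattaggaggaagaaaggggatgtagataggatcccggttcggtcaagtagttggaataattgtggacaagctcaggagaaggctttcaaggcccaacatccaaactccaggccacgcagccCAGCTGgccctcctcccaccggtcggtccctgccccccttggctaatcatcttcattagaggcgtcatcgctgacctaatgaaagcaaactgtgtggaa
Nhlh1, chr1:172057597-172057846, minus strand: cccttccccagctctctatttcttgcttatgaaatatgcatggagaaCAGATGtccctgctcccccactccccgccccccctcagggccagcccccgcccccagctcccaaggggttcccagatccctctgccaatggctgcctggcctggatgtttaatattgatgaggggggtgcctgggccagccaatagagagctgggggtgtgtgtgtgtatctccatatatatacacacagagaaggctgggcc
The Mybpc1 window holds CAGCTG and CATCTG, those of Nhlh2 and Nhlh1 hold CAGATG, that of Barhl1 holds CAGCTG, and those of Dbx1, Helt and Neurod1 hold none of these letters. Over all genes tested, 13126 had a promoter to search, and 12.6% of these windows held CAGCTG and 10.8% CAGATG. For the genes called higher in the Atoh1 addition the shares were 19.2% and 15.9% of 496 windows, and for those called lower 9.09% and 13.4% of 209. The E-box CACGTG, which other bHLH proteins prefer, was in 8.0% of all windows, 6.25% of the higher and 5.74% of the lower set. These shares describe letters in a window and are not evidence of binding.

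The transgenes followed the labels. Atoh1 had 4.11 and 3.02 normalized counts in untreated iG+P, 32.5 and 24.8 in iG+P with Dox, 87.3 and 92.3 in untreated iGPA and 16728 and 19107 in iGPA with Dox. It was lowest in untreated iG+P and highest in iGPA with Dox, with no overlap of the 4 groups, and it was already higher in untreated iGPA than in untreated iG+P by 4.33 (limma adjusted p = 1.96e-06). In the iG+P line, which has no Atoh1 cassette, it rose with Dox by 2.70. The Atoh1 addition for Atoh1 itself, 4.92 (SE 0.47, limma adjusted p = 2.61e-06), is therefore smaller than the difference between the Dox groups, 9.25. In iG+P Gfi1 went from 57.9 and 76.8 normalized counts without Dox to 10729 and 12487 with it, and in iGPA from 67.6 and 72.6 to 8119 and 9464. In iG+P Pou4f3 went from 22.6 and 45.3 normalized counts without Dox to 17590 and 19883 with it, and in iGPA from 48.9 and 72.6 to 13037 and 15115. The common factors were thus induced in both lines, with additions of -0.47 (limma adjusted p = 0.417) for Gfi1 and -1.29 (limma adjusted p = 0.206) for Pou4f3, neither called. With Dox both were nevertheless lower in iGPA than in iG+P without overlap. Whether these lower levels changed other genes was not tested, and they cannot be told apart from the presence of Atoh1. These counts do not separate a transgene from the endogenous gene.

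Replicates of a group correlated by 0.987 to 0.989 across the 16837 genes tested, libraries of iGPA and iG+P with Dox by 0.955 to 0.961, and untreated libraries of the lines by 0.973 to 0.988. Estimated depth of the 8 libraries was 35.0 to 45.2 M reads, with 17628 to 17975 genes above 0. Before Dox, 43 genes (0.255% of those tested) differed between the lines past the threshold, a count that was 6 without replicate 1 and 166 without replicate 2 of untreated iG+P and 5 without replicate 2 of untreated iGPA. The median difference before Dox, iGPA minus iG+P, was 0.97 for blood genes, 0.95 for genes of dissociation stress and -1.01 for pluripotency genes.

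**Figure D1:**
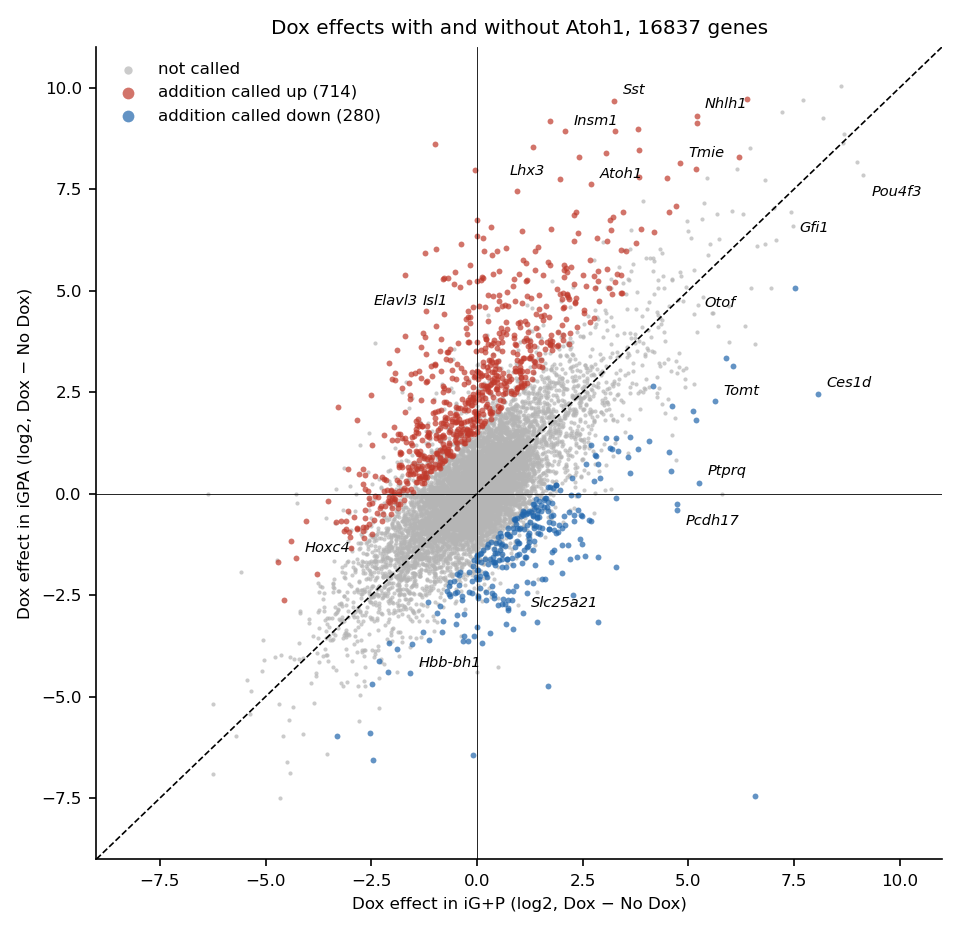
Dox effect of each of 16837 genes in iG+P (x axis) and in iGPA (y axis), both as log2 Dox minus No Dox from 2 libraries per group; the dashed line marks equal effects. Red points above the line are the 714 genes called higher and blue points below it the 280 called lower in the Atoh1 addition, with Lhx3, Insm1 and Sst far above the line, Ces1d, Ptprq and Pcdh17 far below it, and Gfi1 and Pou4f3 near it.

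More genes were called higher than lower when Atoh1 was added. The addition was called for 714 genes upward (4.24% of 16837) and 280 downward (1.66%), with a median standard error of 0.26 and a median of 0.03 over all genes. In bulk libraries, fewer cells of a type and less RNA per cell cannot be told apart. In iGPA 1456 genes (8.65%) rose and 894 (5.31%) fell with Dox, and in iG+P 868 (5.16%) rose and 902 (5.36%) fell. Comparing the sorted groups with each other, without the untreated ones, 842 genes (5%) were higher and 243 (1.44%) lower in iGPA with Dox than in iG+P with Dox. Of the 714 genes, 548 (76.8%) were also called higher in that comparison, and of the 280 genes 117 (41.8%) were also called lower. For 102 of the 280 genes untreated iGPA was above untreated iG+P by at least 1 on the log2 scale, and for 116 of the 714 it was below by as much. The number called lower depended on single libraries. It was 156 without replicate 1 of untreated iG+P, 173 without replicate 2 of iG+P with Dox and 161 without replicate 2 of untreated iGPA, while the number called higher ran from 504 to 744 when 1 of the 8 libraries was left out.

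Most of the 714 genes rose with Dox in iGPA and were not called in iG+P, as 384 of them (53.8%) did. A further 104 rose in both lines and 104 fell in iG+P without being called in iGPA. Dox effects of opposite sign, both called, were found for 11, and 107 were called in neither line alone. Of the 280 genes, 102 fell in iGPA and were not called in iG+P, 70 rose in iG+P and were not called in iGPA, 10 rose in iG+P and fell in iGPA, 9 rose in both and 80 were called in neither. These patterns use the same libraries as the call itself.

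Among the largest rises was Insm1 (chromosome 2, 146047657 to 146050752), a zinc finger factor of neuroendocrine cells and outer HCs. Insm1 had 9.23 and 18.1 normalized counts in untreated iG+P, 60 and 57.3 in iG+P with Dox, 14 and 8.84 in untreated iGPA and 5822 and 6018 in iGPA with Dox. Both iGPA libraries with Dox lay far above the other 6, and the addition was 6.84 (SE 0.69, limma adjusted p = 4.70e-06). Sst (chromosome 16, 23889667 to 23890930) encodes the peptide hormone somatostatin. Sst was at 4774 and 4949.8 normalized counts in iGPA with Dox, 6.11 and 3.92 in untreated iGPA, 12.9 and 38.7 in iG+P with Dox and 1.03 and 2.02 in untreated iG+P. The Dox libraries of iG+P were above the untreated ones, but far below iGPA with Dox, and the addition was 6.44 (SE 1.04, limma adjusted p = 3.99e-04). Mybpc1 (chromosome 10, 87981024 to 88067897), a myosin-binding protein of slow muscle, followed the same order. In iG+P Mybpc1 went from 3.07 and 9.02 normalized counts without Dox to 17.6 and 22.8 with it, and in iGPA from 2.62 and 3.93 to 1829.5 and 3307, an addition of 7.46 (SE 0.83, limma adjusted p = 1.33e-05). Wnt10a (chromosome 1, 74838090 to 74850753), a secreted Wnt ligand, was nearly absent from all but 1 group. Wnt10a was at 666 and 569 normalized counts in iGPA with Dox, 1.75 and 0 in untreated iGPA, 2.94 and 2.17 in iG+P with Dox and 0 and 1.00 in untreated iG+P, and the addition was 7.22 (SE 1.01, limma adjusted p = 1.23e-04).

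Mmp24 and Ecel1 encode proteases of the cell surface that are expressed in neurons. For Mmp24 the normalized counts were 25.5 and 10.8 in iG+P and 849 and 858 in iGPA with Dox, against 29.6 and 16 and 11.4 and 10.8 without it. Ecel1 was at 902 and 883 normalized counts in iGPA with Dox, 5.40 and 3.04 in untreated iGPA, 17.2 and 14.5 in iG+P with Dox and 6.33 and 9.30 in untreated iG+P. Neither was called with Dox in iG+P, and the additions were 6.51 (limma adjusted p = 5.90e-06) and 6.50 (limma adjusted p = 6.63e-06). Unc80, a subunit of the sodium leak channel complex, had an addition of 7.14 (limma adjusted p = 9.58e-04), with 21.7 and 0.985 normalized counts in the Dox libraries of iG+P, a wide spread, against 397 and 336 in those of iGPA. Asb2, which directs proteins to degradation, Cox8b, a subunit of cytochrome c oxidase, Ppp1r17, a phosphatase inhibitor of Purkinje cells, and Actrt3 completed the largest rises in which no group is listed at 0 in both libraries, all called, at 7.08, 6.99, 6.25 and 6.14. These sizes depend on the pseudocount, and with 5 in place of 1 they were 5.39, 5.06, 5.99 and 4.37. Ppp1r17 was also lower in untreated iGPA than in untreated iG+P (a difference of -2.0, limma adjusted p = 0.0442), which adds to its value.

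For some of the largest rises no fold is given because a group is listed at 0 in both libraries. Dbx1 (chromosome 7, 56886869 to 56892219), a homeodomain factor of spinal interneuron progenitors, was at 335 and 455 normalized counts in iGPA with Dox and listed at 0 in 5 of the other 6 libraries, with 3.01 in the last. Helt (chromosome 8, 47377404 to 47380025), a bHLH factor of the midbrain, was at 289 and 215 in iGPA with Dox, listed at 0 in untreated iGPA and at 4.84 and 0 in iG+P with Dox. Atp4a, a subunit of the gastric proton pump, was at 58.4 and 109 in iGPA with Dox and listed at 0 in the other 6. Rprl1, a small RNA gene, rested largely on 1 library, with 2240.1 and 84.4 normalized counts in iGPA with Dox, and its call was lost without any 1 of 6 of the 8 libraries (limma adjusted p = 0.0562 to 0.148).

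Of the genes known from HCs, some were called higher, some lower and most neither. The counts of each list stand against 4.24% of all genes called upward and 1.66% downward in the addition, 8.65% and 5.31% with Dox in iGPA and 5.16% and 5.36% with Dox in iG+P. Of 6 HC markers that are also used in qPCR, 1 was called higher and none lower, at a median addition of 0.60. Lhx3 (chromosome 2, 26055732 to 26063769), a LIM homeodomain factor of HCs and motor neurons, was the called one. Lhx3 had 1.47 and 0 normalized counts in untreated iG+P, 5.63 and 4.64 in iG+P with Dox, 0.501 and 1.40 in untreated iGPA and 337 and 497 in iGPA with Dox. It was close to 0 in both untreated groups, barely above that in iG+P with Dox, and the addition was 5.79 (SE 1.09, limma adjusted p = 0.00149). Otof (chromosome 5, 30669351 to 30764305) encodes otoferlin, the calcium sensor of the HC synapse. In iG+P Otof went from 5.11 and 9.02 normalized counts without Dox to 997 and 485 with it, and in iGPA from 6.99 and 6.88 to 293 and 240.3. It rose with Dox in both lines, the iG+P libraries with Dox lay above those of iGPA, and the addition of -1.41 (SE 0.68, limma adjusted p = 0.181) was not called. Espn, an actin bundler of stereocilia, rose with Dox by 1.87 in iG+P and 3.10 in iGPA. Its Dox libraries overlapped between the lines (2332 and 1421 normalized counts against 2033 and 1951), and the addition was 1.22 (limma adjusted p = 0.110).

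Myo6 (chromosome 9, 80012838 to 80159536), an unconventional myosin at the base of stereocilia, was higher with Dox in both lines, in iG+P by less than the threshold of 1.5. For Myo6 the normalized counts were 5066 and 5819 in iG+P and 9698 and 9360 in iGPA with Dox, against 1833 and 2299 and 2125 and 1936 without it. The iGPA libraries with Dox were above those of iG+P without overlap, and the addition of 0.83 (SE 0.28, limma adjusted p = 0.0496) was under the threshold of 1.5 and so not called. Myo7a, a myosin of the bundle, had an addition of 0.37 (limma adjusted p = 0.182), and Cdh23, a cadherin of the tip link, one of -0.45 (limma adjusted p = 0.773). Cdh23 was listed at 10367 and 36932 normalized counts in untreated iGPA, 27200 and 22116 in iGPA with Dox and 24919 to 67281 in the 4 libraries of iG+P, and its sign changed when single libraries were left out. Cdh23 was thus already high without Dox, and which transcripts these counts come from was not tested. Of 3 neuronal markers used in qPCR none was called by limma, and 1 had an unadjusted p under 0.05. Tubb3, a neuronal tubulin, had an addition of 0.72 (limma adjusted p = 0.388), and Dcx, a microtubule-binding protein of migrating neurons, one of 1.85 (limma adjusted p = 0.0526). Dcx was called with the filter raised from 10 to 50 normalized counts (limma adjusted p = 0.0493) or without replicate 2 of iG+P with Dox (limma adjusted p = 0.0400). Barhl2, a homeodomain factor of dorsal interneurons, had at most 21.5 normalized counts in any library and an addition of 0.38 (SE 1.53, limma adjusted p = 0.905).

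**Figure D2:**
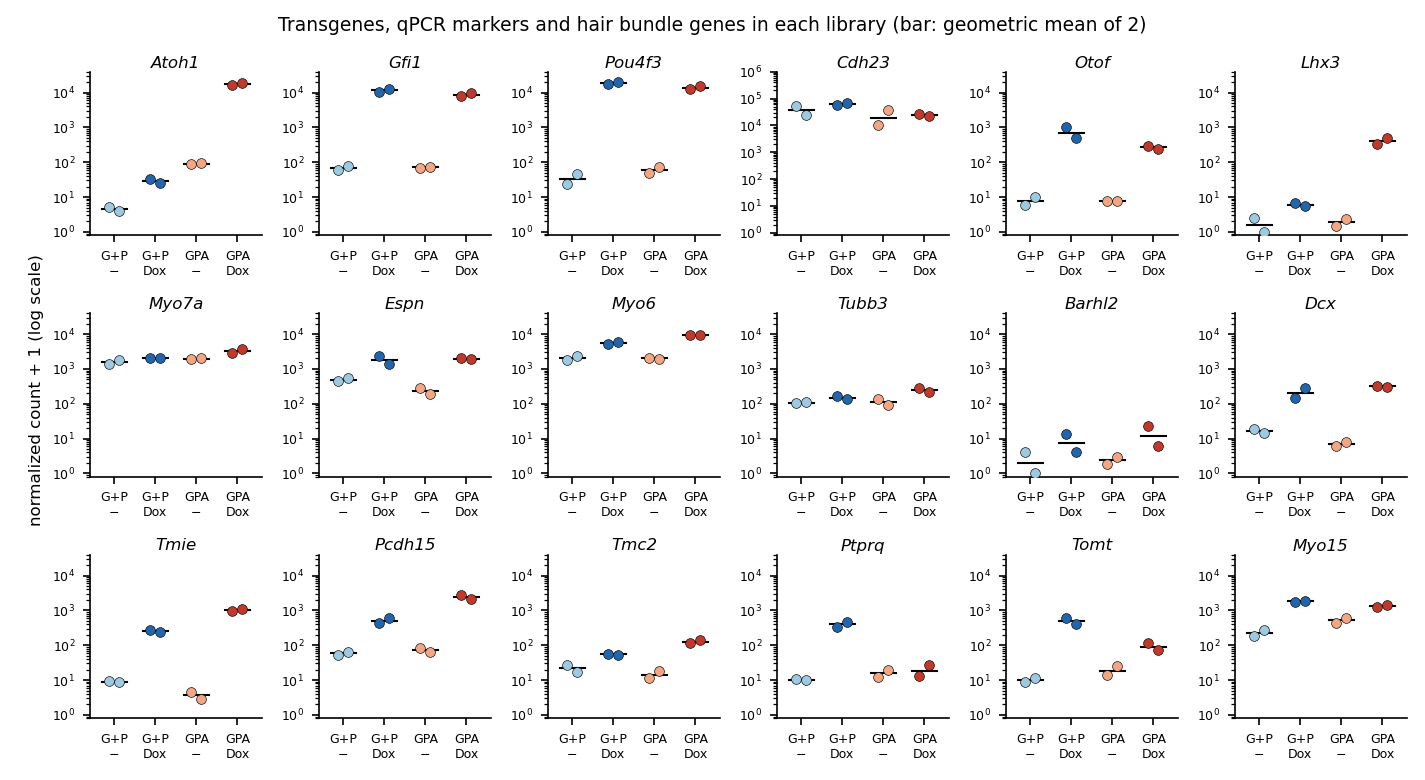
Normalized count plus 1 on a log axis in each of the 8 libraries (points) with the geometric mean of the 2 libraries of a group (bar), for the transgenes, the qPCR markers and the named hair bundle genes; columns are iG+P and iGPA without (−) and with Dox. Lhx3, Tmie and Pcdh15 are highest in iGPA with Dox, Ptprq and Tomt are highest in iG+P with Dox, and Espn is at a like level in both Dox groups.

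Many genes of the hair bundle and of mechanotransduction rose with Dox in each line. Of 38 tested, 17 were called higher with Dox in iGPA (over all genes 8.65%) and 18 in iG+P (5.16%), with median Dox effects of 0.74 and 1.38. The Atoh1 addition was called for 3 upward and 3 downward, with a median of 0.19 against 0.03 over all genes. The median of the list was 0.13 without replicate 1 of untreated iG+P, 0.07 and 0.35 without replicates 1 and 2 of iG+P with Dox and 0.31 without replicate 1 of untreated iGPA. After quantile normalization it was 0.01, against -0.05 over all genes, with 2 called upward and 4 downward, and with a pseudocount of 5 the calls were 3 and 5. Tmie (chromosome 9, 110768215 to 110782617), a subunit of the transduction channel complex, was one of those that rose. Tmie had 8.18 and 8.02 normalized counts in untreated iG+P, 279 and 233 in iG+P with Dox, 3.50 and 1.97 in untreated iGPA and 975 and 1086 in iGPA with Dox. It rose with Dox in iG+P, and its level with Dox in iGPA was higher still without overlap, an addition of 3.33 (SE 0.62, limma adjusted p = 0.00136). Pcdh15, the partner of Cdh23 in the tip link, showed the same order. Pcdh15 was at 2863 and 2099 normalized counts in iGPA with Dox, 82.1 and 63.6 in untreated iGPA, 432 and 592 in iG+P with Dox and 51.4 and 64.4 in untreated iG+P, with an addition of 1.95 (SE 0.50, limma adjusted p = 0.0134). Tmc2, a pore subunit of the immature channel, had an addition of 1.79 (limma adjusted p = 0.0386), close to the threshold for p.

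Ptprq (chromosome 10, 106954416 to 107157083), a phosphatase of the shaft connectors between stereocilia, went the opposite way. In iG+P Ptprq went from 9.96 and 8.79 normalized counts without Dox to 345 and 457 with it, and in iGPA from 11.1 and 19.2 to 12 and 25.6. Its libraries of iGPA with Dox overlapped with untreated iGPA, so that the rise of 5.26 in iG+P was not seen in iGPA (0.25), and the addition was -5.01 (SE 0.63, limma adjusted p = 4.61e-05). Tomt (chromosome 7, 109046887 to 109054873), which is needed to bring the channel to the bundle, rose in both lines but less with Atoh1. For Tomt the normalized counts were 616 and 411 in iG+P and 116 and 71.4 in iGPA with Dox, against 7.84 and 10.9 and 13.3 and 23.9 without it, an addition of -3.34 (SE 0.74, limma adjusted p = 0.00500). Myo15, the motor that carries cargo to stereocilia tips, had an addition of -1.68 (limma adjusted p = 0.00730). Its Dox groups differed by -0.42 (limma adjusted p = 0.292), while untreated iGPA was above untreated iG+P by 1.25 (limma adjusted p = 0.0450). In this list the count called higher was 1 without replicate 1 of iG+P with Dox, replicate 2 of untreated iGPA or replicate 1 of iGPA with Dox.

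Of 24 genes of the HC synapse, channels and calcium handling, 9 rose with Dox in iGPA and 10 in iG+P, and the addition was called for 2 upward and none downward (median 0.14). Pclo, a scaffold of the presynaptic active zone, was one. Pclo was at 1217 and 1276 normalized counts in iGPA with Dox, 123 and 94.9 in untreated iGPA, 147 and 160 in iG+P with Dox and 103 and 101 in untreated iG+P. The other 6 libraries lay between 94.9 and 160, far below iGPA with Dox, with an addition of 2.93 (SE 0.46, limma adjusted p = 3.56e-04). Cacna2d2, an auxiliary subunit of calcium channels, rose in both lines. In iG+P Cacna2d2 went from 991 and 874 normalized counts without Dox to 3616 and 4866 with it, and in iGPA from 725 and 568 to 7886 and 8618, an addition of 1.51 (SE 0.25, limma adjusted p = 5.94e-04) just past the threshold of 1.5. The median of the list was 0.0043 after quantile normalization, -0.07 without replicate 2 of untreated iGPA and at most 0.31, without replicate 1 of untreated iGPA, and 1 gene was called higher without replicate 1 of untreated iG+P, replicate 1 of iG+P with Dox or replicate 2 of either iGPA group.

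Among transcription factors of HCs the addition was called for 8 of 26 upward (over all genes 4.24%) and 2 downward (1.66%), with a median of 0.98, and 13 of the 26 rose with Dox in iGPA against 7 in iG+P. The list also holds the splicing regulators Rbm24, Srrm3 and Srrm4, which are not transcription factors. Beside Insm1 and Lhx3, the named ones that rose were Barhl1 and Nhlh2, and Hmx3, Isl1, Nhlh1 and Rbm24 were called as well. Barhl1 (chromosome 2, 28763199 to 28772188), a homeodomain factor needed for HCs to survive, rested on the Dox libraries of iGPA. Barhl1 was at 953 and 1207 normalized counts in iGPA with Dox, 10.5 and 10.8 in untreated iGPA, 26.5 and 29.3 in iG+P with Dox and 5.12 and 11 in untreated iG+P. No other library was above 29.3, and the addition was 4.78 (SE 0.67, limma adjusted p = 1.30e-04). Nhlh2, a bHLH factor of postmitotic neurons, was at 48.1 and 40.4 normalized counts in iGPA with Dox, listed at 0 in untreated iGPA and at 6.88 and 4.33 in iG+P with Dox. Rfx2, a factor of ciliated cells and HCs, and Rorb, a nuclear receptor, were called lower (-1.56, limma adjusted p = 0.0431 and -1.85, limma adjusted p = 0.0488). For neither did the Dox groups themselves differ past the threshold, and leaving out any of the 8 libraries left 1 or none called lower, as a fit of only the groups compared left none. The median was 0.49 without replicate 2 of iG+P with Dox.

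Genes known to follow Atoh1 had the highest median of the lists. Of 21 tested 12 were called higher and none lower, at a median addition of 2.28, and 13 rose with Dox in iGPA against 7 in iG+P. Neurod1 (chromosome 2, 79292678 to 79296908), a bHLH factor of neurons and endocrine cells, had a Dox effect of 0.11 in iG+P and of 5.35 in iGPA. Neurod1 had 20.5 and 33.1 normalized counts in untreated iG+P, 28.5 and 28.1 in iG+P with Dox, 20.1 and 10.8 in untreated iGPA and 694 and 592 in iGPA with Dox. The iGPA libraries with Dox were above the other 6 without overlap, at an addition of 5.23 (SE 0.86, limma adjusted p = 5.05e-04). Nhlh1 (chromosome 1, 173982423 to 173987704), a relative of Nhlh2, rose in both lines. In iG+P Nhlh1 went from 5.12 and 9.03 normalized counts without Dox to 249 and 330.2 with it, and in iGPA from 6.12 and 2.95 to 3430.3 and 3214. Its rise in iG+P was 5.2, that in iGPA 9.29, and the addition 4.09 (SE 0.73, limma adjusted p = 9.14e-04). Several members of this list are ligands or targets of Notch and stand in that list too. Nhlh1, Nhlh2, Barhl1 and Rbm24 were also counted among the called HC transcription factors, so the 2 lists are not separate results.

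In the Notch pathway, in which ligands on one cell activate receptors on its neighbours and so keep them from the same fate, 13 of 33 genes were called higher and none lower, at a median addition of 1.29. The ligands called were Dll1, Dll3, Dll4, Jag1, Jag2, Dlk2 and Dner, the last 2 being distant relatives of the others. Mfng and Lfng, which modify the receptor with sugars, Hey1 and Heyl, which are transcribed when the receptor is active, Hes6, which opposes other Hes proteins, and Numbl, an inhibitor of the receptor, were called as well. The receptors Notch1, Notch2, Notch3 and Notch4, named for their role after their values were seen, were not, with additions of 1.44, -0.04, 0.43 and 0.97. Dll3 (chromosome 7, 29076673 to 29087257), a ligand that acts within the cell, rose in both lines. In iG+P Dll3 went from 168 and 185 normalized counts without Dox to 2825 and 1348 with it, and in iGPA from 73.4 and 39.3 to 7423 and 6117. The iGPA libraries with Dox lay above those of iG+P, and untreated iGPA below untreated iG+P, so that the addition of 3.48 (SE 0.96, limma adjusted p = 0.0190) exceeded the difference of the Dox groups, 1.79 (limma adjusted p = 0.0627). Dlk2 was at 401 and 429.6 in iGPA with Dox and at most 19.3 in the others (4.67, limma adjusted p = 1.77e-04). For Dner the normalized counts were 178 and 59.6 in iG+P and 1483 and 1389 in iGPA with Dox, against 73.6 and 102 and 60.3 and 37.3 without it (4.64, limma adjusted p = 2.44e-04). Heyl was at 639.9 and 876 in iGPA with Dox, against 60.8 and 26 in iG+P with Dox (4.02, limma adjusted p = 7.61e-04).

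Among supporting cell and prosensory genes, 3 of 17 were called higher (over all genes 4.24%) and 1 lower (1.66%). The 3 were 5 without replicate 1 of untreated iGPA, 2 without replicate 2 of iG+P with Dox or of untreated iGPA, and 6 with a threshold of 1 on the log2 scale. Sox10, a factor of the otic epithelium and neural crest, and Lfng had additions of 3.45 (limma adjusted p = 0.0128) and 2.36 (limma adjusted p = 0.00584), and Jag1, a ligand of the prosensory domain, one of 1.89 (limma adjusted p = 0.00552). Gjb6, a gap junction protein of supporting cells, was called lower (-3.23, limma adjusted p = 0.0309) at 19.6 normalized counts or fewer in every library. Of 14 proneural bHLH factors and their partners 6 were called higher and none lower (median 1.39). Olig3, a bHLH factor of the dorsal spinal cord, was at 70.4 and 105 normalized counts in iGPA with Dox and at most 4.37 elsewhere (4.22, limma adjusted p = 0.0120). Of the 4 Id genes, whose products sequester bHLH partners, Id1 was called. Id1 was at 6417 and 7328 normalized counts in iGPA with Dox, 2628 and 2217 in untreated iGPA, 2882 and 2958 in iG+P with Dox and 3059.6 and 3269 in untreated iG+P. The iGPA libraries with Dox were highest without overlap, at an addition of 1.62 (SE 0.23, limma adjusted p = 1.53e-04). None of the 4 was called without replicate 2 of untreated iGPA, and 2 were called higher without replicate 2 of untreated iG+P, replicate 1 of iG+P with Dox or replicate 1 of either iGPA group. With a threshold of 1 on the log2 scale, 3 were called higher and 1 lower.

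Of 39 general neuronal genes, 12 were called higher and 1 lower, with a median addition of 1.09, and 20 rose with Dox in iGPA against 6 in iG+P. Nefl (chromosome 14, 68701920 to 68707152) and Nefm (chromosome 14, 68700647 to 68742903), the light and medium neurofilament subunits, lie on opposite strands of chromosome 14, where the annotated span of Nefm contains that of Nefl, and without strand their reads cannot be fully told apart. Nefl had 50.2 and 41.1 normalized counts in untreated iG+P, 34.4 and 19.5 in iG+P with Dox, 24.5 and 21.6 in untreated iGPA and 877 and 1048 in iGPA with Dox. Nefm was at 393 and 446 normalized counts in iGPA with Dox, 15.7 and 5.89 in untreated iGPA, 14.7 and 7.58 in iG+P with Dox and 17.4 and 21.1 in untreated iG+P. Neither rose in iG+P, and both were highest in iGPA with Dox without overlap, at additions of 6.11 (SE 0.72, limma adjusted p = 2.49e-05) and 6.08 (SE 1.09, limma adjusted p = 0.00103). The heavy subunit Nefh was called lower (-2.18, limma adjusted p = 0.0291), at 37.9 normalized counts or fewer in every library. Prph (chromosome 15, 98885605 to 98889409), an intermediate filament of peripheral neurons, was lower with Dox in iG+P, short of a call, and higher in iGPA. In iG+P Prph went from 703 and 466 normalized counts without Dox to 199.6 and 281 with it, and in iGPA from 411 and 370.3 to 6547 and 5549, an addition of 5.21 (SE 0.61, limma adjusted p = 2.32e-05). Elavl3 (chromosome 9, 21819449 to 21856467), a neuronal RNA-binding protein, followed Nefl. For Elavl3 the normalized counts were 34.3 and 19.5 in iG+P and 1349.9 and 1795 in iGPA with Dox, against 34.7 and 58.1 and 100.5 and 50.1 without it, an addition of 5.21 (SE 0.76, limma adjusted p = 1.69e-04).

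Sensory neuron genes rose in 5 of 24 cases and fell in 1, at a median of 1.26, and 14 of the 24 rose with Dox in iGPA against 8 in iG+P. Isl1 (chromosome 13, 117088478 to 117099896), a LIM homeodomain factor of sensory and motor neurons and of HCs, was high from the start. Isl1 had 759.7 and 726 normalized counts in untreated iG+P, 615 and 677 in iG+P with Dox, 475 and 226 in untreated iGPA and 7397 and 7381 in iGPA with Dox. The iGPA libraries with Dox lay far above the other 6, and the addition was 4.69 (SE 0.63, limma adjusted p = 8.17e-05). Prrxl1, a homeodomain factor of nociceptive neurons, had an addition of 5.18 (limma adjusted p = 0.00159). In iG+P Prrxl1 went from 1.83 and 0.899 normalized counts without Dox to 26.7 and 37 with it, and in iGPA from 3.76 and 4.41 to 2547 and 2603. Piezo2, the touch channel of Merkel cells and sensory neurons, had an addition of 2.13 (limma adjusted p = 7.00e-04). It was higher in both iGPA libraries with Dox (1774 and 2038) than in the other 6, which lay between 474 and 717. Together with Isl1, Sst and Insm1 it made up the 4 genes called higher among 14 of Merkel cells and secretory cells of the gut, in which none was called lower.

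Axon guidance genes were called higher in 8 of 35 cases and lower in 1. Cntn2, an adhesion molecule of growing axons that also marks dorsal interneurons, had an addition of 3.96 (SE 0.59, limma adjusted p = 2.32e-04). Cntn2 was at 5998 and 7313 normalized counts in iGPA with Dox, 35.5 and 23.2 in untreated iGPA, 500.3 and 542 in iG+P with Dox and 33.5 and 37.3 in untreated iG+P. Draxin, a secreted repellent, had an addition of 3.82 (SE 0.31, limma adjusted p = 6.12e-07), Unc5a, a netrin receptor, one of 2.90 (limma adjusted p = 1.19e-04), and Robo2, a Slit receptor, one of 2.80 (limma adjusted p = 1.28e-04). Ntn3, a netrin, was called lower (-1.53, limma adjusted p = 0.0111). Of 17 genes of the rhombic lip and of dorsal interneurons 5 were called higher, namely Neurod1, Barhl1, Nhlh1, Cntn2 and Zic1, and 1 lower, Lmx1a, a roof plate factor (-2.0, limma adjusted p = 0.0103).

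**Figure D3:**
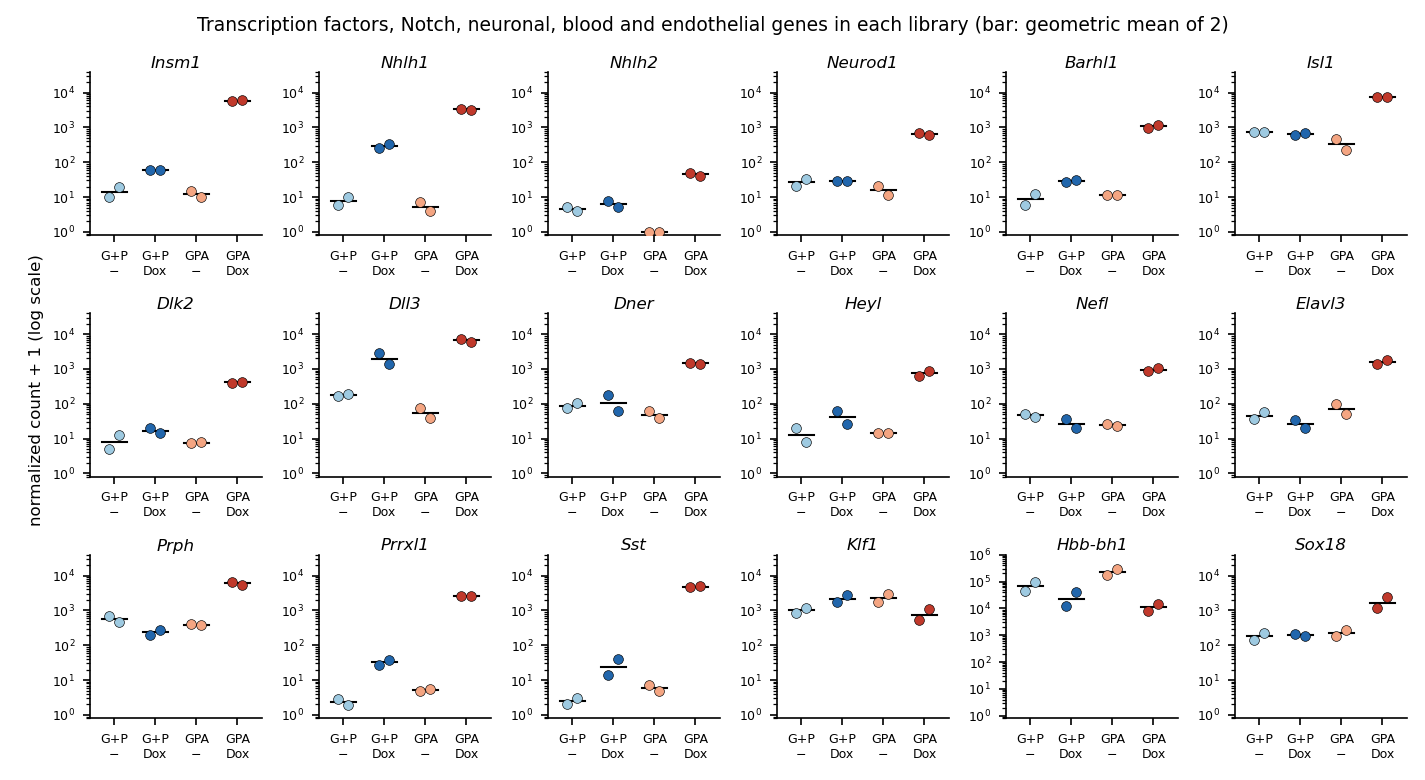
Normalized count plus 1 on a log axis in each of the 8 libraries (points) with the geometric mean of the 2 libraries of a group (bar), for named transcription factors, Notch, neuronal, blood and endothelial genes. Insm1, Neurod1, Isl1, Nefl and Sst are highest in iGPA with Dox, whereas the mean of Hbb-bh1 is highest in untreated iGPA and lowest in iGPA with Dox.

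Most Hox genes, which give cells their position along the body axis, fell with Dox in each line. Of 34 tested, 24 fell in iG+P (over all genes 5.36%) and 18 in iGPA (5.31%), and the addition was called for 5 upward and none downward, at a median of 0.71. Hoxc4 (13.1 and 12.6 normalized counts in iG+P and 80.1 and 70.6 in iGPA with Dox) had an addition of 2.70 (SE 0.40, limma adjusted p = 1.93e-04). Its untreated levels were 267 and 269.8 in iG+P and 254 and 203 in iGPA. Hoxd1, Hoxd3 and Hoxd4 had additions of 1.67 (limma adjusted p = 0.00402), 1.65 (limma adjusted p = 0.00243) and 1.59 (limma adjusted p = 0.0323). The count of 5 was 1 without replicate 1 of untreated iG+P, 3 without replicate 2 of iG+P with Dox, 2 without replicate 2 of untreated iGPA or of iGPA with Dox, and 3 after quantile normalization. The median of 0.71 was 1.17 without replicate 1 of iGPA with Dox.

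The largest falls held genes that were higher with Dox in iG+P and that rose less, or not at all, with Dox in iGPA. Ces1d (chromosome 8, 95689967 to 95721737), a carboxylesterase of liver and fat, was one. Ces1d had 2.04 and 1.00 normalized counts in untreated iG+P, 557 and 787 in iG+P with Dox, 0.874 and 0.983 in untreated iGPA and 9.22 and 10.1 in iGPA with Dox. It rose by 8.07 in iG+P and by 2.47 in iGPA, an addition of -5.60 (SE 1.14, limma adjusted p = 0.00253). Pcdh17 (chromosome 14, 84843370 to 84936867), a protocadherin of neurons, was high in iG+P with Dox alone. Pcdh17 was at 83.8 and 176 normalized counts in iGPA with Dox, 116 and 185 in untreated iGPA, 1273 and 1608 in iG+P with Dox and 38.4 and 71.6 in untreated iG+P, an addition of -5.01 (SE 0.74, limma adjusted p = 2.06e-04). Tenm2, a teneurin of the synapse, was lifted in the same group, though untreated iGPA was uneven. In iG+P Tenm2 went from 80.4 and 120.4 normalized counts without Dox to 1146 and 831 with it, and in iGPA from 164 and 594 to 68.3 and 116, an addition of -5.10 (SE 0.91, limma adjusted p = 9.60e-04). Ptprq, given above, belongs to this set.

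Meltf, a transferrin-like protein of the cell surface, Abcg4, a sterol transporter of neurons, and Kcnh7, a potassium channel, rose in iG+P as well (Dox effects of 2.86, 2.56 and 2.02) and fell in iGPA (-1.56, -1.53 and -1.96). Their additions were -4.42 (limma adjusted p = 1.91e-05), -4.09 (limma adjusted p = 3.75e-04) and -3.98 (limma adjusted p = 0.0103), and untreated iGPA was above untreated iG+P in all 3, by 1.54, 1.34 and 1.87, none of these called. The uncharacterized gene 6030468B19Rik was called lower as well. Slc25a21, a mitochondrial carrier, fell with Dox in iGPA and not in iG+P. For Slc25a21 the normalized counts were 837 and 1724 in iG+P and 172 and 264 in iGPA with Dox, against 407 and 786 and 1312 and 2076 without it, an addition of -4.03 (SE 0.58, limma adjusted p = 1.55e-04).

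Dio3, which inactivates thyroid hormone, and Dio3os, transcribed from the opposite strand beside it on chromosome 12, fell together in iGPA. Dio3 had 43.2 and 107 normalized counts in untreated iG+P, 89.7 and 173 in iG+P with Dox, 108 and 125 in untreated iGPA and 10.2 and 11.1 in iGPA with Dox. Dio3os was at 1.02 and 0 normalized counts in iGPA with Dox, 34.1 and 40.3 in untreated iGPA, 90.5 and 177 in iG+P with Dox and 36.9 and 41.2 in untreated iG+P. The additions were -4.20 (limma adjusted p = 0.00124) and -6.42 (limma adjusted p = 0.00348). Evi2b, a membrane protein of blood cells, was listed at 0 in both iGPA libraries with Dox, at 64.2 and 114 normalized counts in untreated iGPA and at 75.9 and 34 in iG+P with Dox. Ints2, a subunit of the Integrator complex, was listed at 0 there too and varied widely elsewhere, from 0 to 515.

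Genes of other cell types that EBs hold moved as well. Of 21 blood genes, 10 were called lower and none higher in the addition, at a median of -1.5, while with Dox 7 fell in iGPA and 2 in iG+P. Hbb-bh1, an embryonic globin, had 179530 and 299070 normalized counts in untreated iGPA and 45574 and 93797 in untreated iG+P. With Dox it was at 8177 and 14183 in iGPA and 11770 and 40645 in iG+P, an addition of -2.85 (SE 0.70, limma adjusted p = 0.00987). Klf1, the main factor of red cell genes, Alas2, the first enzyme of heme synthesis in red cells, and Runx1, a factor of blood stem cells and sensory neurons, had additions of -2.68 (limma adjusted p = 0.00244), -2.50 (limma adjusted p = 0.00578) and -1.71 (limma adjusted p = 0.0120). Hba-a2 has a near-identical copy, so that its call is uncertain.

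The summed level of the blood list was 52776 and 95925 normalized counts in iGPA with Dox, 71252 and 150880 in iG+P with Dox, 334140 and 551570 in untreated iGPA and 93119 and 183430 in untreated iG+P. The median over the 21 genes was -0.30 between the Dox groups, in which 2 were called lower and 1 higher. The part of the untreated level in these falls was not tested. The number called lower was 4 without replicate 1 of untreated iG+P, replicate 2 of iG+P with Dox, replicate 2 of untreated iGPA or replicate 1 of iGPA with Dox.

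Endothelial genes were higher with Atoh1. Of 12 tested, 8 were called higher and none lower, at a median addition of 1.87, and all 12 additions were above 0. In iG+P 4 of them fell with Dox and none rose, in iGPA 1 rose and 1 fell, and between the Dox groups 9 were higher in iGPA. Sox18, a factor of vessels and lymphatics, stood out in iGPA with Dox. Sox18 was at 1155 and 2371 normalized counts in iGPA with Dox, 178 and 268 in untreated iGPA, 204 and 189 in iG+P with Dox and 142 and 231 in untreated iG+P. Both iGPA libraries with Dox were above the other 6 and far apart from each other, and the addition was 2.80 (SE 0.68, limma adjusted p = 0.00949). Eng, a co-receptor of the TGF-beta family, had 774 and 815 normalized counts in iG+P with Dox and 2556 and 3918 in iGPA with Dox, an addition of 2.18 (SE 0.40, limma adjusted p = 0.00120). Esam, an adhesion molecule of vessels and platelets, had an addition of 2.18 (limma adjusted p = 0.00263), and Sox17, a factor of endothelium and endoderm, one of 2.06 (limma adjusted p = 0.0441). Without replicate 2 of iGPA with Dox, 3 of the 12 were called. The list summed to 22673 and 39038 normalized counts in iGPA with Dox and to 9030 and 8728 in iG+P with Dox.

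Among 22 fibroblast and mesenchymal genes, 16 fell with Dox in iGPA and 11 in iG+P, and the addition was called for 1 upward (over all genes 4.24%) and 2 downward (1.66%). The 2 were none without replicate 1 of untreated iG+P, replicate 2 of untreated iGPA or replicate 1 of iGPA with Dox, 1 without either iG+P library with Dox, and 4 without replicate 1 of untreated iGPA. The falls were those of the matrix proteoglycans Dcn (-4.58, limma adjusted p = 0.0282) and Lum (-4.10, limma adjusted p = 0.0458), both of which had been higher in untreated iGPA (by 2.16 and 2.51, neither called), and the rise that of Thy1 (4.17, limma adjusted p = 4.78e-04), which neurons express too. In endoderm and epithelium 1 of 14 was called higher, which was Sox17. None of 16 pluripotency genes, 28 cell cycle genes and 17 genes of dissociation stress was called in either direction by limma, and 0, 24 and 1 of them had an unadjusted p under 0.05. Among the cell cycle genes 1 was called lower without replicate 2 of untreated iG+P, replicate 1 of iG+P with Dox or replicate 2 of iGPA with Dox, and 1 each way without replicate 1 of untreated iGPA. The cell cycle genes had a median addition of -0.51, with 26 of 28 below 0, and median Dox effects of -0.54 in iGPA and 0.00 in iG+P. Of 10 inhibitors of cyclin-dependent kinases and Rb family members, Cdkn2b was called higher. Cdkn2b was at 290.4 and 321 normalized counts in iGPA with Dox, 35.8 and 21.6 in untreated iGPA, 27.5 and 39 in iG+P with Dox and 23.5 and 26.1 in untreated iG+P. The iGPA libraries with Dox lay above the other 6 without overlap, at an addition of 3.02 (SE 0.37, limma adjusted p = 3.46e-05).

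**Figure D4:**
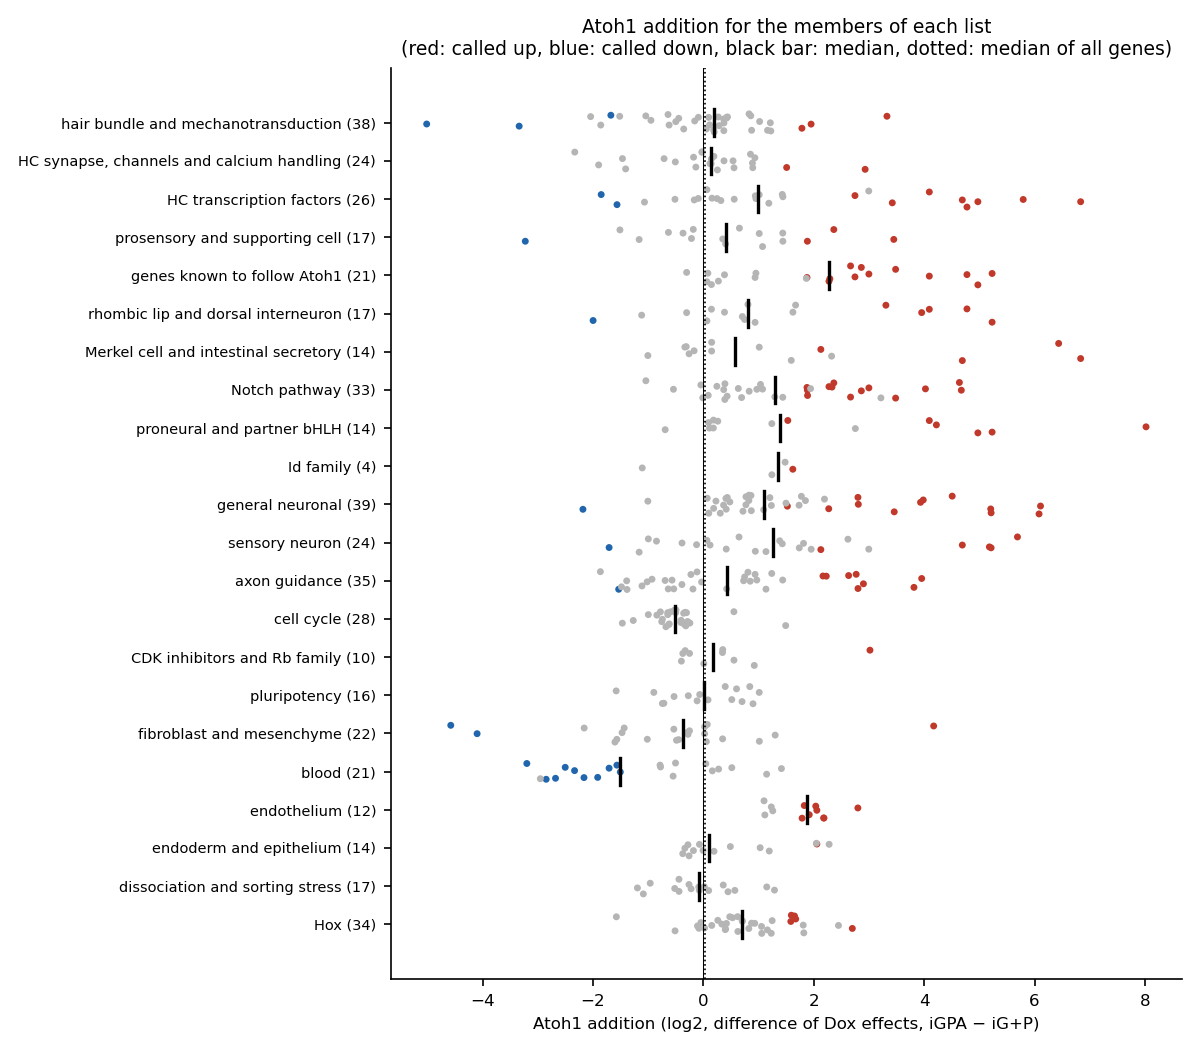
Atoh1 addition (log2, difference of Dox effects, iGPA minus iG+P; x axis) for every tested member of each list (points; number tested in brackets), with the median of the list as a black bar and that of all genes as a dotted line. Red points are called higher and blue points lower; genes known to follow Atoh1 and endothelial genes lie furthest to the right (medians 2.28 and 1.87) and blood genes furthest to the left (-1.5).

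Several of the named calls rested on single libraries, left out in turn in the limma fit. Without replicate 1 of untreated iG+P, Dcn, Dll3, Hbb-bh1, Ints2, Lmx1a, Lum, Nefh, Olig3, Rprl1, Runx1, Sox10 and Sox17 had adjusted p from 0.0510 to 0.191, and Cacna2d2, Hoxd1, Hoxd3, Hoxd4, Myo15, Ntn3, Rfx2 and Tmc2 changed by less than 1.5. Without replicate 2 of untreated iG+P, Dll3, Gjb6, Nefh, Pcdh15, Rprl1 and Sox17 had adjusted p from 0.0520 to 0.108, and Rorb changed by less than 1.5. Without replicate 1 of iG+P with Dox, Dcn, Pcdh15, Rfx2, Rorb, Rprl1 and Tmc2 had adjusted p from 0.0507 to 0.0699, and Cacna2d2 changed by less than 1.5. Without replicate 2 of iG+P with Dox, Dcn, Dll3, Gjb6, Hbb-bh1, Ints2, Lmx1a, Lum, Nefh, Rorb, Rprl1, Sox10, Sox17 and Tmc2 had adjusted p from 0.0609 to 0.177, and Hoxd3, Hoxd4, Ntn3, Rfx2 and Runx1 changed by less than 1.5. Without replicate 1 of untreated iGPA, Nefh and Rprl1 had adjusted p from 0.0561 to 0.126, and Hoxd4, Rorb and Tmc2 changed by less than 1.5. Without replicate 2 of untreated iGPA, Dcn, Dll3, Gjb6, Hbb-bh1, Hoxd4, Ints2, Lmx1a, Lum, Nefh, Olig3, Pcdh15, Runx1, Sox10, Sox17 and Tmc2 had adjusted p from 0.0502 to 0.224, and Cacna2d2, Hoxd1, Id1, Myo15, Ntn3 and Rfx2 changed by less than 1.5. Without replicate 1 of iGPA with Dox, Dcn, Dll3, Gjb6, Hbb-bh1, Hoxd4, Lum, Nefh, Pcdh15, Rorb and Tmc2 had adjusted p from 0.0520 to 0.152, and Lmx1a, Rfx2 and Runx1 changed by less than 1.5. Without replicate 2 of iGPA with Dox, Gjb6, Lum, Rorb, Rprl1, Sox17, Sox18 and Tmc2 had adjusted p from 0.0526 to 0.169, and Cacna2d2, Hoxd3, Hoxd4 and Ntn3 changed by less than 1.5. The other named calls held with each of the 8 libraries left out.

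To compare the addition with that of Atoh1 to fewer factors, it was set against 3 comparisons made of libraries it does not use. These lines were made, treated and sorted in the same way and collected at the same day. The comparisons were the Dox effect in iAtoh1, which carries Atoh1 alone, Atoh1 added to Gfi1 (Dox effect in iG+A minus that in iGfi1) and Atoh1 added to Pou4f3 (iP+A minus iPou4f3). The first of these still holds the effect of sorting, which cancels in the others only as far as it is alike in both lines, and this was not tested. Atoh1 alone was called for 486 genes upward (2.89%) and 424 downward (2.52%), Atoh1 added to Gfi1 for 871 (5.17%) and 567 (3.37%), and Atoh1 added to Pou4f3 for 242 (1.44%) and 29 (0.172%). Of the 714 genes called higher when Atoh1 was added to both factors, 415 were also called higher when it was added to Gfi1, which is 58.1% of the former and 47.6% of the latter. With Atoh1 alone 228 were shared (31.9% and 46.9%), and with Atoh1 added to Pou4f3 146 (20.4% and 60.3%). Of the 280 genes called lower, 153 were shared with Gfi1 (54.6% and 27%), 117 with Atoh1 alone (41.8% and 27.6%) and 10 with Pou4f3 (3.57% and 34.5%). Across all genes, Pearson's r with the addition was 0.589 for Gfi1, 0.447 for Atoh1 alone and 0.352 for Pou4f3, as a description over 16837 genes that are not independent.

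In all 4 comparisons 74 genes were called higher, among them Mybpc1, Insm1, Neurod1, Nhlh1, Nhlh2, Barhl1, Dll3, Dll4, Jag2, Heyl, Hes6, Mfng, Prph, Draxin and Rbm24, and 9 lower, Gata1, Runx1 and Slc25a21 among them. In none of the other 3 were 219 of the 714 and 107 of the 280 called. A call in one comparison and not in another does not show a difference, which was tested directly. The addition to Gfi1 with Pou4f3 was larger than the effect of Atoh1 alone for 265 genes (1.57%) and smaller for 101 (0.6%), and of the 714 genes 182 were among the former and 3 among the latter. The 714 were chosen by a high value of the same addition, which by itself favours the former, so no conclusion is drawn from this split. Against Atoh1 added to Gfi1 only 30 genes (0.178%) differed in either direction, and against Atoh1 added to Pou4f3 165 (0.98%). Before adjustment, 2026 and 2530 genes had a limma p under 0.05 in these last comparisons, whose median standard error of 0.37 was wider than that of the addition. These counts depended on single libraries. The 265 were 173 without replicate 2 of untreated iG+P, 154 without replicate 2 of untreated iGPA and 147 without replicate 2 of iGPA with Dox, and the 101 were 60 without replicate 1 of untreated iG+P, 53 without replicate 2 of untreated iGPA and 59 without replicate 2 of iGPA with Dox. The 30 were 17 without replicate 2 of untreated iGfi1, 19 and 52 without replicate 1 of iG+A without and with Dox, and 16 without replicate 2 of untreated iGPA. The 165 were 74 without replicate 1 of untreated iPou4f3, 90 and 93 without either iPou4f3 library with Dox, 71 and 104 without either iP+A library with Dox, 97 without replicate 1 of untreated iG+P, 100 without replicate 2 of iG+P with Dox, 70 without replicate 2 of untreated iGPA and 98 without replicate 2 of iGPA with Dox. Atoh1 added to Pou4f3 was called for 131 genes in all without replicate 1 of iP+A with Dox.

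Mmp24 rose by 6.51 in the addition and by 6.04 when Atoh1 was added to Pou4f3, but its changes were -0.38 with Atoh1 alone and -1.08 when it was added to Gfi1, and the differences from these, 6.89 and 7.59, were called (limma adjusted p = 2.45e-04 and 0.00133). Sst showed the complement, at 7.31 when Atoh1 was added to Gfi1, -0.52 alone and 0.99 with Pou4f3. The difference from Atoh1 alone was 6.96 (limma adjusted p = 0.00515), and that from Pou4f3 was 5.45 and not called (limma adjusted p = 0.0780). Nefl rose more in the addition than with Atoh1 alone (4.61, limma adjusted p = 0.00679) and than by Atoh1 added to Gfi1 (5.45, limma adjusted p = 0.0341). Pcdh15 rose by 1.95 in the addition and fell by 2.61 when Atoh1 was added to Pou4f3, a called difference of 4.56 (limma adjusted p = 0.00666). Tubb3 went the opposite way, with 0.72 in the addition and 4.71 with Pou4f3, a called difference of -3.99 (limma adjusted p = 0.0110).

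The falls of Ptprq and Pcdh17 were tested in the same way. Ptprq changed by -0.18 with Atoh1 alone and 0.15 when Atoh1 was added to Gfi1, against -5.01 in the addition, and these differences were called (limma adjusted p = 0.00209 and 0.0152). With Pou4f3 its change was -2.67 and the difference was not called (limma adjusted p = 0.228). For Pcdh17 the differences from all 3 were called, at -5.22, -6.35 and -4.33. With Dox, Atoh1 itself had 18996 and 21242 normalized counts in iAtoh1, 14276 and 16667 in iG+A, 14888 and 12816 in iP+A and 16728 and 19107 in iGPA. These levels were not tested against each other.

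**Figure D5:**
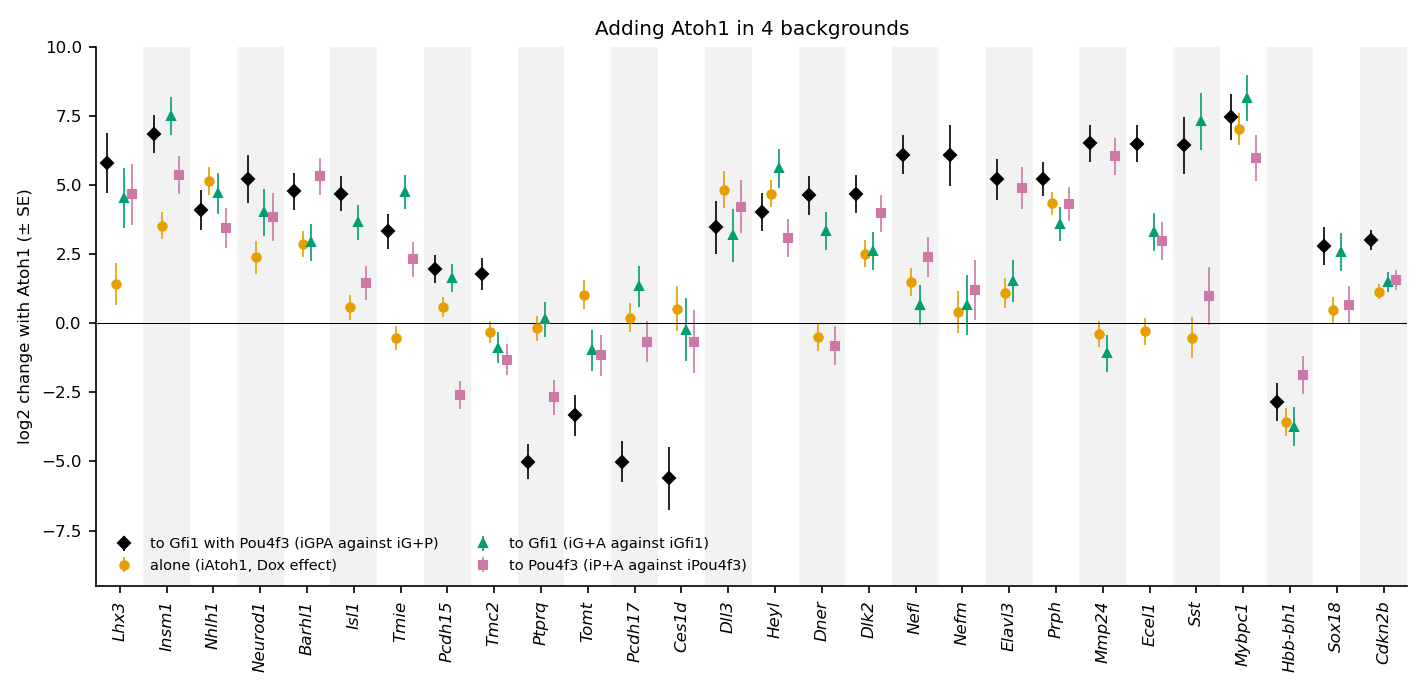
Log2 change with Atoh1 (± SE, from 2 libraries per group) for named genes when Atoh1 was added to Gfi1 with Pou4f3 (diamonds), alone (circles), to Gfi1 (triangles) and to Pou4f3 (squares). Mybpc1, Nhlh1 and Heyl rise in all 4, Mmp24 in those with Pou4f3, Sst in those with Gfi1, and Ptprq, Tomt and Ces1d are lowest for Gfi1 with Pou4f3.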

How the data were processed

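RNA was measured by sequencing (Illumina, KAPA mRNA HyperPrep, poly(A) RNA) in 28 libraries of 7 lines, 2 per group, of which the iG+P and iGPA lines give the 8 compared here. The authors trimmed reads with cutadapt, assigned them to UCSC knownGene transcripts (mm9) with Kallisto at default settings, summed them to genes with tximport and scaled them with DESeq2 (versions not given in the sources used here). The deposited values are log2 of the normalized count plus 1 for 19421 genes. Of values up to 20, 73.1 to 77.2% lay within 0.05 of a multiple of the smallest step, which is most but not nearly all, and since Kallisto estimates counts that need not be whole, no count test was run. Depth is the summed value divided by that step.

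Genes with at least 10 normalized counts in 2 of the 28 libraries (16837) were fitted with limma 3.58.1 in R 4.3.3, with 1 mean per group, 14 residual degrees of freedom, a variance trend and Benjamini-Hochberg adjustment. Unless stated, p-values are two-sided. All 14 groups share the estimate of the spread. Per the series record replicates are clones of a line, so p-values measure the spread between these clones. The fit was tested on simulated data. Named genes are the transgenes, the 9 qPCR markers, the 15 largest rises and falls with a mean of at least 50 in a group and the same sign for all choices of replicates, and up to 4 called members per list and direction (some are not reported here). The comparison, members and lists were chosen with earlier results of these data known. Promoters are from RefSeq. Alternatives were other pseudocounts, filters and scalings, a replicate block, a fit of only the groups compared, no trend, a threshold of 1 and leaving out each library.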

Additional observations from a re-analysis of the deposited data

Results flagged for a closer look

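Some named genes were singled out because the change with Atoh1 differed between backgrounds in a limma test of the difference itself. Values are the addition to Gfi1 with Pou4f3 minus the change in the other background, on the log2 scale. The change was higher than with Atoh1 alone, a comparison that includes sorting, for Unc80 (7.52), Sst (6.96), Mmp24 (6.89), Ecel1 (6.79), Nefm (5.67), Dner (5.13), Nefl (4.61), Thy1 (4.40), Elavl3 (4.11), Isl1 (4.11), Tmie (3.85), Cntn2 (3.79), Insm1 (3.31), Piezo2 (2.82), Esam (2.45), Cdkn2b (1.87) and Unc5a (1.85), and lower for Ces1d (-6.14), Pcdh17 (-5.22), Tenm2 (-5.03), Ptprq (-4.83), Tomt (-4.38), Meltf (-3.81), Atoh1 (-3.57), Pou4f3 (-3.50) and Rorb (-3.06) (limma adjusted p = 2.45e-04 to 0.0449). The change was higher than when Atoh1 was added to Gfi1, for Mmp24 (7.59), Nefl (5.45) and Hoxc4 (2.82), and lower for Pcdh17 (-6.35) and Ptprq (-5.17) (limma adjusted p = 0.00133 to 0.0413). The change was higher than when Atoh1 was added to Pou4f3, for Dner (5.45), Pcdh15 (4.56), Unc5a (3.41), Hoxd1 (2.22) and Hoxd3 (2.01), and lower for Kcnh7 (-7.12), Pcdh17 (-4.33), Meltf (-4.06), Tubb3 (-3.99), Atoh1 (-2.80) and Draxin (-1.80) (limma adjusted p = 0.00666 to 0.0474). For Atoh1 and Pou4f3 these differences include the cassettes. Libraries in groups of 2 were too few for an outlier to be called.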

How the results depend on the processing

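The direction of the named genes was kept in all but 5 of 1708 values over 95 genes and all alternatives, of which 1400 kept a call, 172 belonged to the 10 genes that were not called and stayed so, 128 lost a call and 3 gained one. The reversals were those of uncalled genes, Barhl2 without replicate 1 of untreated iG+P (-0.63), without replicate 2 of iG+P with Dox (-0.46) or without replicate 1 of iGPA with Dox (-0.56), and Cdh23 without replicate 2 of untreated iG+P (0.10) or of untreated iGPA (0.47). Much of this was fixed in advance. All called genes had the same sign for every choice of replicates, so leaving out a library could not reverse them. The replicate block, the fit of only the groups compared, no trend and the threshold of 1 do not alter the change itself. A threshold of 1 cannot lose a call. Without single libraries Barhl2 ranged from -0.63 to 1.40 and Cdh23 from -1.36 to 0.47. With the threshold at 1 on the log2 scale, the addition was called lower for 427 genes, the iGPA Dox group against the iG+P Dox group for 422, and counts were 2743 for the Dox effect in iG+P, 1490 for that in iAtoh1, 2189 for Atoh1 added to Gfi1 and 73 between the untreated lines. In a fit of only the groups compared, the Dox effect in iAtoh1 was called for 563 genes, Atoh1 added to Pou4f3 for 173 and the untreated difference for 2. The untreated difference was called for 10 genes with no filter, 21 after quantile normalization and 12 with no variance trend, and the difference from Atoh1 added to Gfi1 for 49 with a pseudocount of 5. Leaving out 1 library at a time, the addition was called lower for 156 to 304 genes, the untreated difference for 5 to 166, Atoh1 added to Pou4f3 for 131 to 258, the addition above Atoh1 alone for 147 to 280 and below it for 53 to 88, and its difference from Atoh1 added to Gfi1 for 16 to 52 and to Pou4f3 for 70 to 190. The cause of these shifts was not tested, other than that a lower threshold passes more genes and a left-out library leaves 1 in its group, which is then assumed to vary like the others.

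Libraries of a line with the same replicate number deviated together weakly, by a correlation of 0.10 in iG+P and 0.15 in iGPA across genes, and although the series record speaks of clones and the study of experiments, neither says that a number marks the same one in different groups. With a replicate block (7 residual degrees of freedom) the addition was called for 784 genes upward and 332 downward, the addition above Atoh1 alone for 406, the difference from Atoh1 added to Gfi1 for 68, that from Pou4f3 for 301 and the untreated difference for 220. Of the named genes Dcx was then called (limma adjusted p = 0.0485), which was also the gene that gained the other calls, and Nefh, Tmc2 and Sox17 were not (0.0528, 0.0573 and 0.0582). Among hair bundle genes 2 were called higher and 5 lower, among general neuronal genes 14 and none, and among fibroblast genes 1 and 4. Depth is similar across libraries, and changes of genes near 0 are limited by it and by the pseudocount.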
